A study of Mus musculus with 6 samples.

Results

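Connexins and pannexins are the channel proteins that link brain cells to each other or to the space around them, and 9 of their genes were followed here in mouse piriform cortex, which receives direct input from the olfactory bulb. The 9 genes (7 connexins: Gjd2, Gjc1, Gja1, Gjb6, Gjb2, Gjb1 and Gjc3; 2 pannexins: Panx1 and Panx2) were taken by name from a table of 53715 genes. All 9 had enough reads to be among the 16721 genes tested. The genes were chosen by family and cell type with their levels in these libraries and the difference between the groups in counts and CPM already known, so the group values of the members are given as a description, with no p-value.

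Both groups were Gad2-cre mice, which express Cre recombinase in cells that make Gad2, a GABA-synthesising enzyme. The Caspase3 group (3 libraries) had received the virus AAV-DIO-Caspase3 in the piriform cortex of 1 side, and the GFP group (3 libraries) AAV-DIO-GFP. In these viruses the cargo, a protease that executes apoptosis or a fluorescent protein, is switched on only in cells with Cre. Cells without Gad2, among them excitatory neurons and glia, were therefore not targeted by design, and the labels give neither the age of the mice nor the interval after injection or the hemisphere sampled. Poly(A) RNA was sequenced in bulk, and the labels do not state whether each library stands for its own animal. The p-values then reflect only the spread among these libraries, and part of it may be technical.

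Connexins assemble into hexameric hemichannels, and hemichannels of adjoining cells dock into gap junctions that pass ions and small molecules. In cortex, Gjd2 (connexin 36) forms the electrical synapses of neurons, mainly between inhibitory interneurons, whereas Gja1 (connexin 43) and Gjb6 (connexin 30) couple astrocytes, and Gjb1 (connexin 32) and Gjc3 (connexin 29) belong to myelinating oligodendrocytes. Pannexins share the membrane topology of connexins but work mainly as single-membrane channels that release ATP, and caspases open pannexin 1 by cutting its tail.

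The connexins are held together as a family by cysteines in the first extracellular loop, which is part of the docking surface, and the coding stretch of that loop is shown to let the members be compared. In each line the capitals mark 3 in-frame cysteine codons (TGC or TGT) with 6 and 3 codons between them, read from the longest complete coding sequence of the gene in GENCODE M21 (GRCm38).
Gjd2: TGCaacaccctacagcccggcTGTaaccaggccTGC
Gjc1: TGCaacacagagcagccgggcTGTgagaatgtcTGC
Gja1: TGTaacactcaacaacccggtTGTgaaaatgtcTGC
Gjb6: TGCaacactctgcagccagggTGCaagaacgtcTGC
Gjb2: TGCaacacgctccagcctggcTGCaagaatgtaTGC
Gjb1: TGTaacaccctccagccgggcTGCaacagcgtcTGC
Gjc3: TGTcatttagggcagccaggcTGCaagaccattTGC
The stretch began at codon 53 in Gjc1, Gjb6, Gjb2 and Gjb1, at codon 54 in Gja1, at codon 55 in Gjd2 and at codon 64 in Gjc3. The pattern was found in 18 of 19 mouse connexin coding sequences and in none of the 3 pannexins, against 2.09% of 21523 coding sequences overall. Over the whole coding sequence, identity between pairs of the 7 connexins ran from 37.6% of the aligned length for Gjc1 and Gjb2 to 65.6% for Gjb6 and Gjb2. The longest run of bases shared by any pair of the 9 members was 28 in their transcripts and 20 in their coding sequences. All 9 members had the same identifier, start and end in the count table as in GENCODE M21.

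The promoters of Gjd2, whose groups did not overlap, and of the neighbouring genes Gjb2 and Gjb6, which differed in how far they varied between libraries, are printed for the 250 bases before the start site (RefSeq, GRCm38.p6, minus strand). Capitals mark matches on either strand to the GC box GGGCGG, the TATA box TATAAA, the AP-1 site TGANTCA and the interferon-stimulated response element, and no match overlapped another.
Gjd2, chr2:114013620-114013869: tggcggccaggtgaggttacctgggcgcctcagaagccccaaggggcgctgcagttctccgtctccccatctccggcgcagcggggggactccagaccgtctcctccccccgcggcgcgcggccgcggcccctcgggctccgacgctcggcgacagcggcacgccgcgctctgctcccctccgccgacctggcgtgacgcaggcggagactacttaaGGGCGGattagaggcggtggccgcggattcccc
Gjb2, chr14:57104703-57104952: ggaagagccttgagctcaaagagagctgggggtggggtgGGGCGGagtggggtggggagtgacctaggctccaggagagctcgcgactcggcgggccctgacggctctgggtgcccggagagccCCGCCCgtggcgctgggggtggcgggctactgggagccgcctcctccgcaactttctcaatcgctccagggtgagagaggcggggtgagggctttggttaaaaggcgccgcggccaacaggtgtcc
Gjb6, chr14:57133612-57133861: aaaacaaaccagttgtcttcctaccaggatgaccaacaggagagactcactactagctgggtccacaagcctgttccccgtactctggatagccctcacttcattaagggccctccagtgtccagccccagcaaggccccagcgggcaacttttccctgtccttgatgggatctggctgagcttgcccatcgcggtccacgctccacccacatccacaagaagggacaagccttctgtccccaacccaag
The Gjd2 window held 1 GC box, 33 bases before the start, and the Gjb2 window 2, at 211 and 126 bases, while the Gjb6 window held no match to any of the 4 motifs. In 32851 promoter windows of this length the GC box was present in 32.7%, the TATA box in 12.4%, the AP-1 site in 6.75% and the response element in 2.98%. G and C made up 74% of the Gjd2 window, 69.2% of the Gjb2 window and 56.8% of the Gjb6 window, against a median of 52.4%. Of the other members, the Gja1 window had an AP-1 match 19 bases before the start, and the Gjc3 window a response element match at 241 bases. Gjb1 has 4 annotated starts, and 1 of their windows held 3 GC boxes and a TATA box. Promoters were matched for 7 of the 9 members, not for Gjc1 and Panx2. A match is a run of letters, not evidence of binding.

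Total counts were 20424581 to 24227361 in the Caspase3 libraries and 22101015 to 26268377 in the GFP libraries, so that 3 counts in a library stood for 0.118 to 0.142 CPM, the count scaled to a common effective library size. The targeted gene Gad2 lay at 26.7 to 38.5 CPM in the Caspase3 libraries and 92.4 to 118.0 CPM in the GFP libraries (log2 fold change -1.60 ± 0.15 SE, adjusted p = 0.00371 in edgeR's quasi-likelihood test with Benjamini-Hochberg adjustment over all genes tested). GFP replicate 3 stood apart in striatal transcripts. Drd2 and Adora2a, which encode a dopamine and an adenosine receptor of the striatum, were at 23.7 and 42.4 CPM there, against at most 1.03 and 3.12 CPM in every other library. The sum of 8 striatal markers was 1155 CPM in that library and 188.8 to 296.9 CPM in the rest. Of the markers that belong beside no member, Pdgfra of oligodendrocyte precursors was at 102.9 ± 4.17 and 102.1 ± 7.26 CPM and Kl of the choroid plexus at 10.9 ± 4.93 and 5.07 ± 0.376 CPM in the Caspase3 and GFP groups (SD, n = 3 each), and neither passed (edgeR adjusted p = 0.98 and 0.188).

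Ordered by their per-length level (deposited FPKM, mean of 6 libraries), the astrocyte and oligodendrocyte connexins stood above the neuronal ones. Gja1 was first at 42.1 FPKM, followed by Gjc3 at 27.2, Gjb6 at 23.2, Panx2 at 15.1, Gjb1 at 8.83, Gjb2 at 8.10, Panx1 at 2.72, Gjd2 at 1.65 and Gjc1 at 1.20 FPKM. Gja1 was higher than 97.3% and Gjd2 higher than 64.4% of the 31638 genes with a count. Gja1 exceeded Gjc3 in all 6 libraries without overlap of their ranges (lowest Gja1 36.5, highest Gjc3 34.3 FPKM). All further neighbours in this order had overlapping ranges over the 6 libraries. The order within a library was still the same in 6 of 6 for Gjc3 over Gjb6, Panx2 over Gjb1, Gjb2 over Panx1 and Panx1 over Gjd2, in 5 of 6 for Gjb6 over Panx2 and Gjd2 over Gjc1, and in 4 of 6 for Gjb1 over Gjb2.

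**Figure D1:**
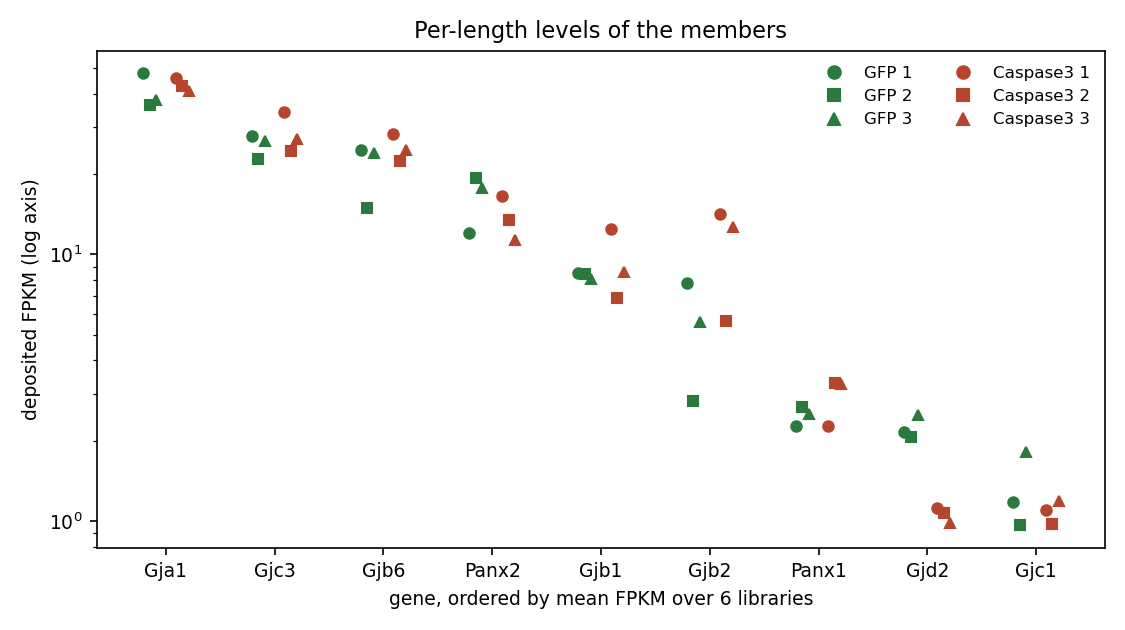
Deposited FPKM (log axis) of the 9 members in each of the 6 libraries, ordered by mean. Colour gives the group and the symbol the replicate number. Gja1 lies highest, between 36.5 and 47.8 FPKM, and Gjd2 shows a gap between the 3 GFP points and the 3 Caspase3 points.

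Of the summed FPKM of the 9 members, Gja1 contributed 32.1% ± 3.08 (SD, n = 3) in the Caspase3 group and 32.9% ± 2.85 (SD, n = 3) in the GFP group. Gjc3 contributed 20.95% ± 0.899 and 20.8% ± 0.191, and Gjd2 0.782% ± 0.0906 and 1.82% ± 0.184, in the same order. The makeup of the pool was thus close for Gja1 and Gjc3. The small neuronal Gjd2 share was lower in each Caspase3 library (0.714% to 0.885%) than in any GFP library (1.61% to 1.97%). Other mean shares shifted by more points, but with overlapping groups. These were Gjb2 (7.79% ± 2.75 and 4.25% ± 1.65), Panx2 (10.1% ± 1.27 and 13.5% ± 4.29) and Gjb6 (18.5% ± 0.388 and 16.9% ± 2.94).

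Gjd2 (ENSMUSG00000068615, chromosome 2, 114009601 to 114013619, minus strand, GRCm38), the connexin of electrical synapses, was lower in the Caspase3 group. It stood at 3.27, 3.09 and 2.84 CPM in Caspase3 replicates 1, 2 and 3 and at 6.24, 5.90 and 7.25 CPM in GFP replicates 1, 2 and 3, from counts of 69, 68, 72, 134, 149 and 165. The groups did not overlap, as was so with all Caspase3 libraries below for 6.29% of all genes tested, and the lowest GFP library was 1.80 times the highest Caspase3 library. The group means were 3.07 ± 0.216 and 6.46 ± 0.700 CPM (SD, n = 3 each), 2.11-fold lower in the Caspase3 group, with a log2 fold change of -1.08 ± 0.17 (SE). This log2 fold change lay between -1.14 and -0.99 when any 1 library was left out, and was -0.99 without GFP replicate 3. In bulk tissue, fewer cells of a type and less RNA per cell cannot be told apart.

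The summed level of 12 GABAergic neuron markers was 421 to 635 CPM in the Caspase3 libraries and 722 to 1047 CPM in the GFP libraries, without overlap, but within the Caspase3 group replicate 1 was highest for Gjd2 and lowest for this sum. Of the 11 tested, Gad2 fell, the other 10 did not pass (4 of the 11 fell with DESeq2, and 8 of 12 when low counts were not filtered), and all 11 had negative values (median log2 fold change -0.78, against -0.00 over all genes tested). Per 1000 CPM of these markers, Gjd2 was at 4.87 to 7.77 CPM in the Caspase3 and 6.14 to 8.65 CPM in the GFP libraries, ranges that overlap. The 8 excitatory neuron markers summed to 3666 to 4036 CPM in the Caspase3 and 3515 to 4152 CPM in the GFP libraries, and their median log2 fold change was -0.00. Camk2a, a kinase gene of excitatory neurons and the most abundant of these, was at 2444 ± 260 and 2512 ± 156.4 CPM (SD, n = 3 each). The part of GABAergic cell content in the Gjd2 difference was not tested. Against Gad2 itself, per length, the ratio of Gjd2 was 0.189 ± 0.0532 in the Caspase3 group and 0.128 ± 0.0222 in the GFP group, higher in each Caspase3 library (0.152 to 0.250) than in any GFP library (0.102 to 0.143). Gjd2 was thus lower by a smaller factor than Gad2. An exon of Gjd2 overlaps antisense exons of A530058N18Rik, a name carried by 2 annotated genes, over 18 and 57 of its 2879 exon bases. No source used here gives the strand setting of the counts, and reads in those bases cannot be assigned without it.

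Gjc1 (connexin 45, ENSMUSG00000034520, chromosome 11, 102799579 to 102819700), known from neurons and from vessel wall cells, showed 1 high library. It was at 5.59, 4.87 and 5.996 CPM in Caspase3 replicates 1, 2 and 3 and at 5.92, 4.79 and 9.09 CPM in GFP replicates 1, 2 and 3. The groups overlapped, and the highest value was that of GFP replicate 3, the library with the striatal transcripts. The log2 fold change of -0.26 ± 0.24 (SE) became 0.03 without that library, so the direction rested on it. The 10 endothelial and mural markers were at 528 to 633 CPM in the Caspase3 and 572 to 721 CPM in the GFP libraries. The markers summed to 721.4 CPM in GFP replicate 3, the highest, and to 715.4 CPM in GFP replicate 1, where Gjc1 was at 5.92 CPM. Their most abundant gene, the pericyte marker Rgs5, was at 194.1 ± 30.3 and 238.7 ± 30.1 CPM, and Pde10a, the most abundant striatal marker, at 54.9 ± 6.84 and 214.3 ± 228.6 CPM (SD, n = 3 each). The parts of striatal and vascular content in the Gjc1 values were not tested.

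The pannexins differed little between the groups. Panx2 (ENSMUSG00000058441, chromosome 15, 89059734 to 89073567), the pannexin of neurons in the brain, was at 60.7, 48.5 and 41.3 CPM in Caspase3 replicates 1, 2 and 3 and at 43.3, 69.1 and 64.5 CPM in GFP replicates 1, 2 and 3. The groups overlapped, with a log2 fold change of -0.24 ± 0.19 (SE). Panx1 (ENSMUSG00000031934, chromosome 9, 15002128 to 15045478), found in many cell types, was at 13.9, 19.97 and 19.8 CPM against 13.7, 16.0 and 15.3 CPM in the same order. Caspase3 replicates 2 and 3 lay above all GFP libraries while replicate 1 lay among them, and the log2 fold change was 0.25 ± 0.16 (SE). Without Caspase3 replicate 1 it was 0.41. Per length, Panx1 reached 0.137 to 0.287 of Panx2 in the Caspase3 libraries and 0.139 to 0.190 of it in the GFP libraries.

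**Figure D2:**
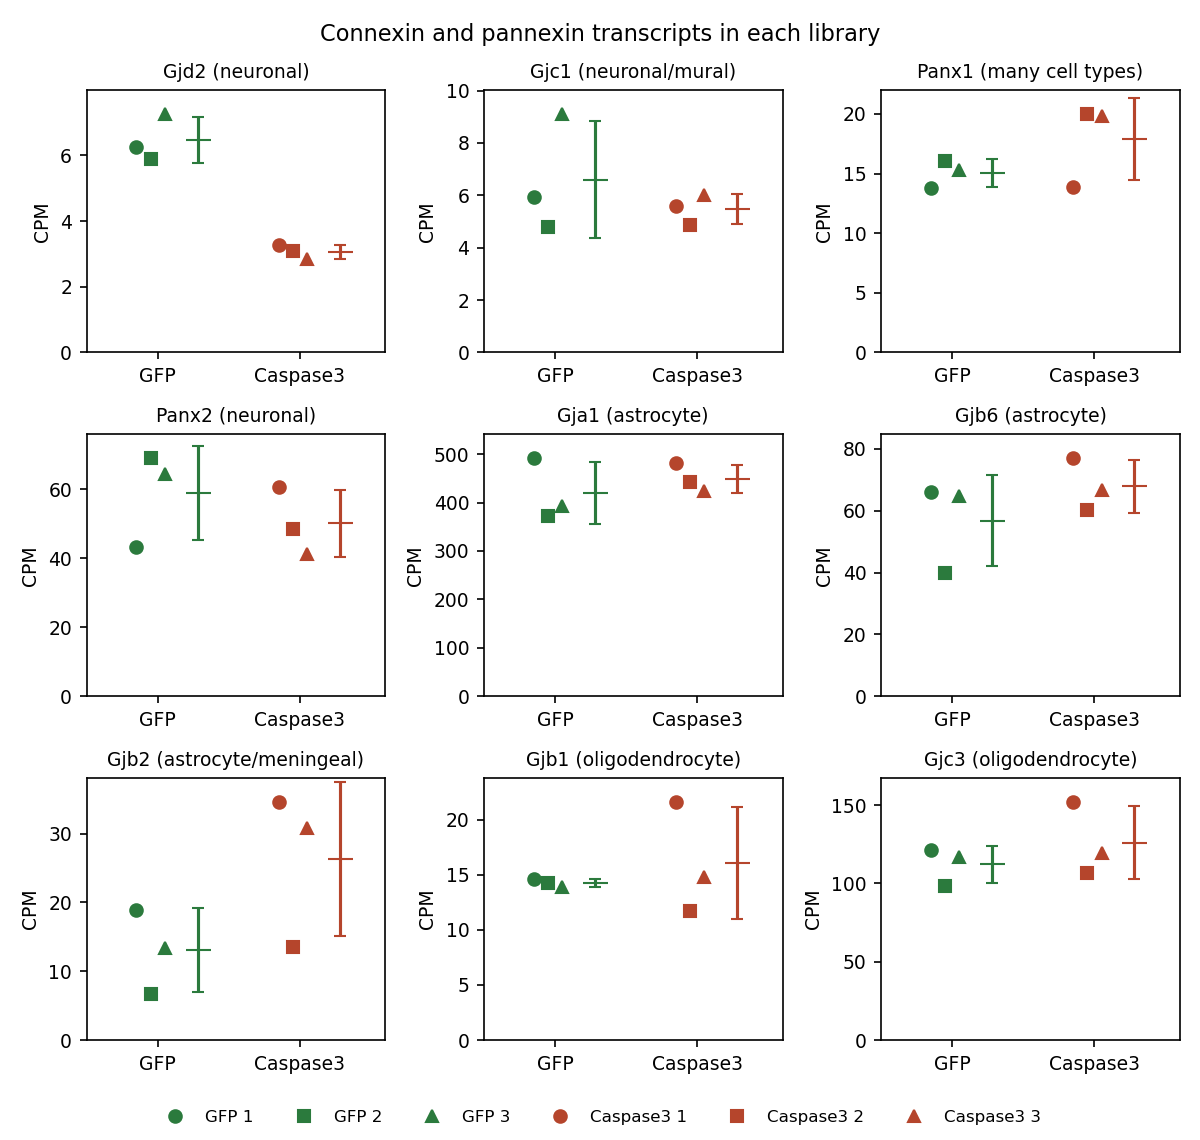
CPM of each member in each library, on axes that start at 0. Symbols give the replicate, bars the group mean and SD (n = 3). Gjd2 is the member whose groups are apart (2.84 to 3.27 against 5.90 to 7.25 CPM), and Gjb2 ran from 13.6 to 34.6 CPM within the Caspase3 group.

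The 2 main astrocyte connexins were at similar levels in both groups. Gja1 (ENSMUSG00000050953, chromosome 10, 56377330 to 56402513) was at 481, 442 and 424 CPM in Caspase3 replicates 1, 2 and 3 and at 492, 372 and 392 CPM in GFP replicates 1, 2 and 3. The highest library was a GFP library and the groups overlapped, with a log2 fold change of 0.10 ± 0.13 (SE). Gjb6 (ENSMUSG00000040055, chromosome 14, 57123303 to 57133611) was at 77.0, 60.1 and 66.7 CPM against 65.9, 39.9 and 64.7 CPM. GFP replicate 2 was low for Gjb6, and without it the log2 fold change went from 0.26 ± 0.18 (SE) to 0.06. The per-length ratio of Gjb6 to Gja1 was 0.580 ± 0.0506 in the Caspase3 and 0.519 ± 0.111 in the GFP group (SD, n = 3 each), with overlapping values. The 10 astrocyte markers summed to 7640 to 10205 CPM in the Caspase3 and 8645 to 10761 CPM in the GFP libraries. Of these, Gfap, the astrocyte intermediate filament, rose (473 ± 102 against 191.3 ± 40.1 CPM, log2 fold change 1.31 ± 0.19, adjusted p = 0.0099 in edgeR's quasi-likelihood test, and 0.0699 without GFP replicate 2), and the other 9 did not pass. Gja1 stood at 0.452 to 0.532 of the water channel gene Aqp4 per length in the Caspase3 libraries and at 0.527 to 0.592 of it in the GFP libraries.

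Gjb2 (connexin 26, ENSMUSG00000046352, chromosome 14, 57098600 to 57104702), known from meningeal fibroblasts and, at lower level, from astrocytes, had the widest span between libraries of the 9 members as a ratio of highest to lowest CPM. It was at 34.6, 13.6 and 30.8 CPM in Caspase3 replicates 1, 2 and 3 and at 18.9, 6.73 and 13.4 CPM in GFP replicates 1, 2 and 3, a 5.14-fold span. Caspase3 replicates 1 and 3 were high, and Caspase3 replicate 2 lay within the GFP range. The group means were 26.3 ± 11.2 and 13.03 ± 6.10 CPM (SD, n = 3 each), with a log2 fold change of 1.02 ± 0.40 (SE) that ran from 0.70 without GFP replicate 2 to 1.39 without GFP replicate 1. Gjb2 and Gjb6 lie 18600 bases apart on the same strand, yet Gjb6 spanned 1.93-fold over the same libraries.

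The meningeal and perivascular fibroblast markers followed a closely similar library order. The 10 markers, all present, summed to 310.8, 116.7 and 252.4 CPM in Caspase3 replicates 1, 2 and 3 and to 182.1, 84.5 and 135.7 CPM in GFP replicates 1, 2 and 3. The top 3 libraries and the lowest library were the same as for Gjb2, and GFP replicate 3 and Caspase3 replicate 2 changed places between them. All 10 markers had positive values (median log2 fold change 0.72, and -0.00 over all genes tested), and none passed in edgeR (2 with an unadjusted p under 0.05), DESeq2 or limma-voom, while in edgeR 1 passed without Caspase3 replicate 2, 6 with the replicate number as a block and 8 when low counts were not filtered. Col1a2, a collagen gene and the most abundant of them, was at 53.3 ± 26.2 and 29.4 ± 11.2 CPM (SD, n = 3 each). Per 1000 CPM of these markers Gjb2 was at 79.7 to 121.9 CPM, a 1.53-fold span, while per 1000 CPM of the astrocyte markers it spanned 5.17-fold. With meningeal markers as denominator the Caspase3 libraries (111 to 122 CPM) still lay above the GFP libraries (79.7 to 103.9 CPM). The part of meningeal content in the Gjb2 values was not tested.

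**Figure D3:**
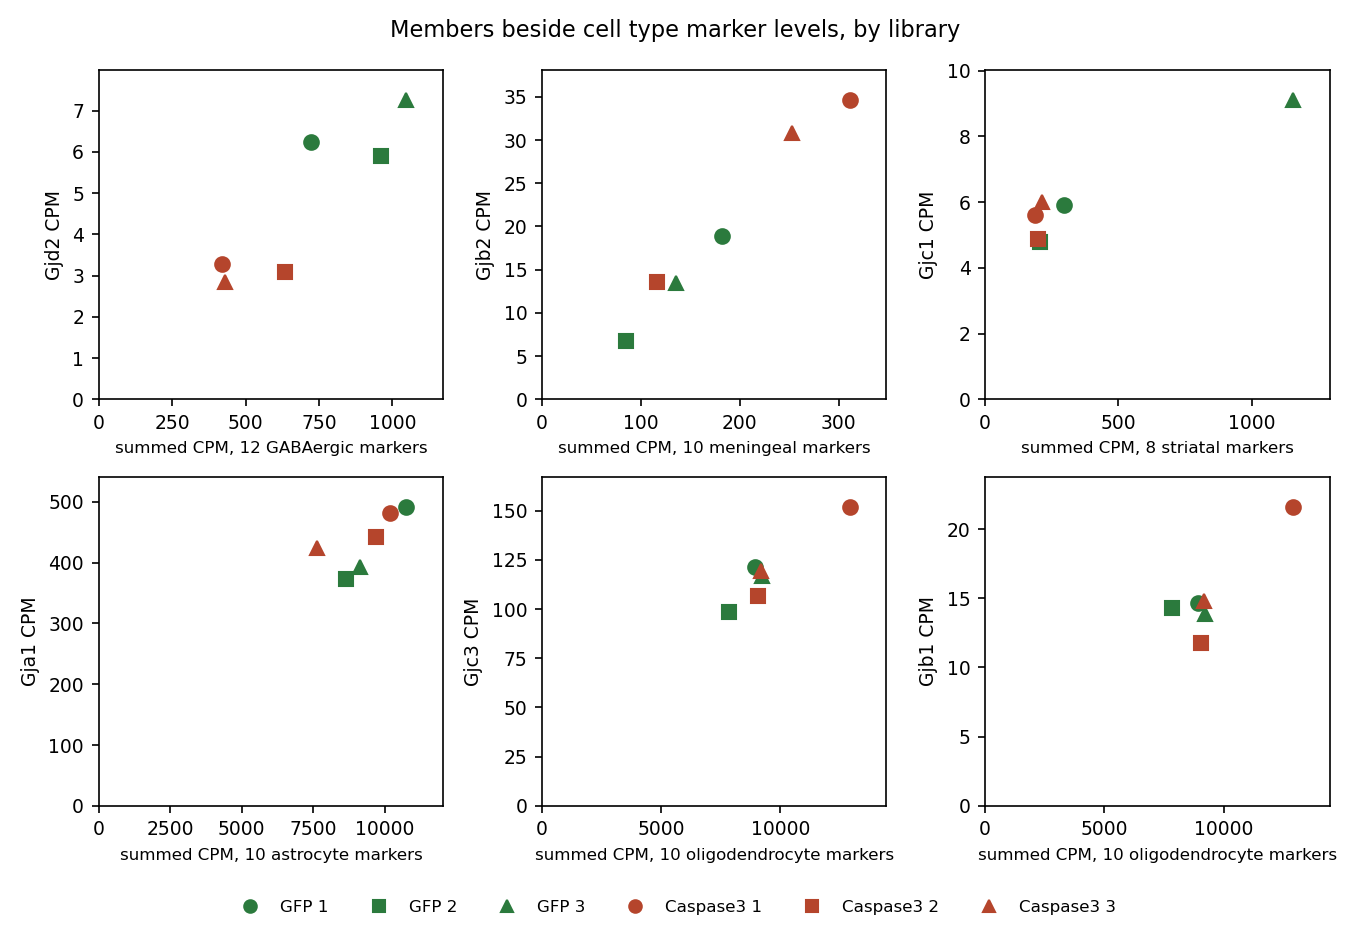
CPM of 6 members (vertical axes) against the summed CPM of cell type markers (horizontal axes), 1 point per library, axes from 0. Gjb2 and the 10 meningeal markers climb together from GFP 2 (6.73 and 84.5 CPM) to Caspase3 1 (34.6 and 310.8 CPM), and GFP 3 lies apart on the striatal axis at 1155 CPM.

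The oligodendrocyte connexins were set apart by 1 Caspase3 library. Gjc3 (ENSMUSG00000056966, chromosome 5, 137953461 to 137963098) was at 152.0, 106.7 and 119.2 CPM in Caspase3 replicates 1, 2 and 3 and at 121.3, 98.6 and 116.7 CPM in GFP replicates 1, 2 and 3. Gjb1 (ENSMUSG00000047797, chromosome X, 101376378 to 101385629) was at 21.6, 11.7 and 14.8 CPM against 14.6, 14.3 and 13.9 CPM. Both were highest in Caspase3 replicate 1, and the groups overlapped. Their log2 fold changes were 0.17 ± 0.14 and 0.17 ± 0.20 (SE), and without that library 0.01 and -0.10. The 10 oligodendrocyte markers were also highest in Caspase3 replicate 1, at 12899 CPM, against 7843 to 9220 CPM in the other libraries. None of the 10 passed in edgeR (3 with an unadjusted p under 0.05), DESeq2 or limma-voom, and their part in the values of that library was not tested. Per 1000 CPM of these markers Gjc3 spanned 11.8 to 13.6 CPM, 1.15-fold over the 6 libraries, against 1.54-fold for Gjc3 itself. Gjb1 spanned 1.41-fold on that scale. The per-length ratio of Gjb1 to Gjc3 was 0.320 ± 0.0412 in the Caspase3 and 0.327 ± 0.0372 in the GFP group (SD, n = 3 each), a difference smaller than the spread between replicates.

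In the test across all genes, 1 of the 9 members, Gjd2, was called at an adjusted p under 0.05 and 8 were not. Of all genes tested, 1.64% were called, 1.53% higher and 0.114% lower, or 274 genes in all and 17 without GFP replicate 2. Gjd2 was no longer called without Caspase3 replicate 3, GFP replicate 2 or GFP replicate 3. It was called without the pair Caspase3 replicate 1 and GFP replicate 3, where its log2 fold change was -1.03. The only member with groups apart in CPM was Gjd2, whereas 15.2% of all genes tested had groups apart, 8.96% with all Caspase3 libraries above and 6.29% below. The median log2 fold change was 0.17 for the 9 members, -0.25 for Gjd2, Gjc1, Panx1 and Panx2, 0.26 for Gja1, Gjb6 and Gjb2, and 0.17 for Gjb1 and Gjc3, against -0.00 for all genes tested. Because the members were chosen with this contrast known, nothing is read from these counts.

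**Figure D4:**
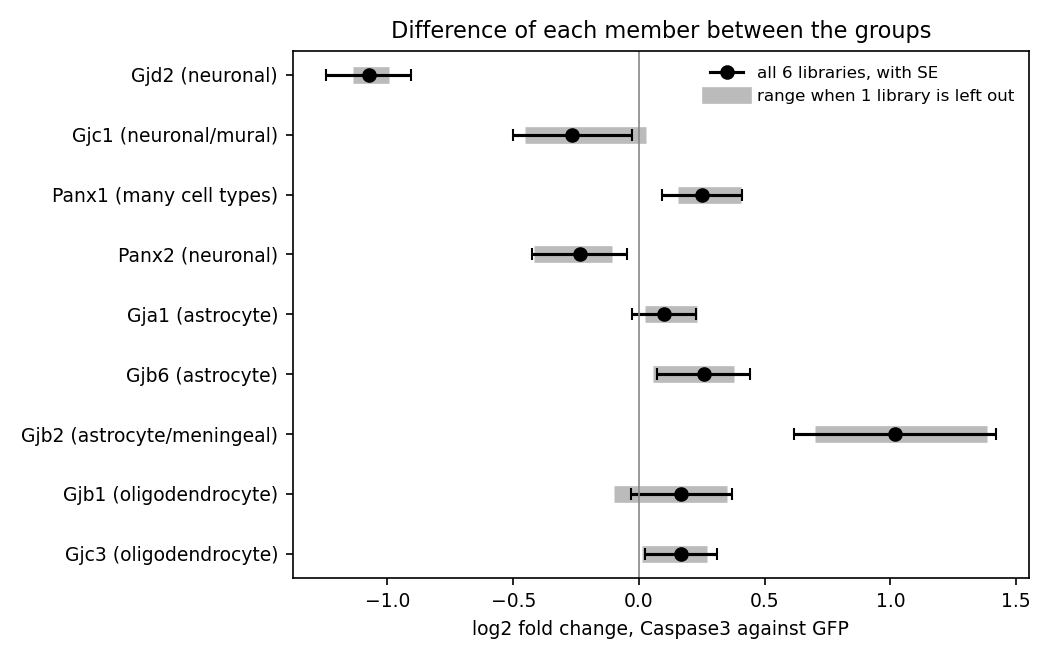
Log2 fold change of each member between the Caspase3 and GFP groups (points with SE, all 6 libraries) and the range when 1 library is left out (grey bars). Gjd2 stays between -1.14 and -0.99, the bars of Gjc1 and Gjb1 cross 0, and the bar of Gjb2 runs from 0.70 to 1.39.

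Set against each other within a library, where no scaling between libraries enters, Gjd2 amounted per length to 0.0242, 0.0249 and 0.0239 of Gja1 in Caspase3 replicates 1, 2 and 3. In GFP replicates 1, 2 and 3 the ratio was 0.0452, 0.0565 and 0.0658. The 3 Caspase3 ratios lay close together and below every GFP ratio. The ratio of Gjd2 to Gjc1, the other connexin known from neurons, was 0.981 ± 0.144 in the Caspase3 and 1.79 ± 0.380 in the GFP group (SD, n = 3 each), again without overlap.

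The rest of the family was scarce. Of the 14 other connexin and pannexin genes, 3 were tested, 11 fell under the filter on low counts, and 4 of these, Gja10, Gjd4 and Panx3 among them, had no count in any library, which allows up to 0.118 to 0.142 CPM in each. The other 7 held 1 to 32 counts over all 6 libraries. The arterial and endothelial connexins Gja4 and Gja5 were at 1.72 ± 0.282 against 2.06 ± 0.614 CPM and at 0.442 ± 0.110 against 0.911 ± 0.205 CPM (SD, n = 3 each). Neither passed (edgeR adjusted p = 0.808 and 0.299), although the Gja5 groups did not overlap. None of the 3 passed in edgeR, DESeq2 or limma-voom, and 1, Gja5, had an unadjusted p under 0.05.

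Genes that act on gap junctions did not pass either. Of 21 scaffold, trafficking and kinase genes, 20 were tested and none was called in edgeR (2 with an unadjusted p under 0.05), DESeq2 or limma-voom, with 14 positive and 6 negative values and a median log2 fold change of 0.02. Tjp1, which encodes the scaffold ZO-1 that binds connexin 36 and connexin 43 and was named after its values were seen, was at 245.7 to 265.0 CPM in the Caspase3 and 185.5 to 239.5 CPM in the GFP libraries. The groups were apart but Tjp1 did not pass (log2 fold change 0.25 ± 0.11, adjusted p = 0.487 in edgeR's quasi-likelihood test).

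Among 16 genes of extracellular ATP and pannexin cleavage, 1 rose in edgeR, none fell and 15 did not pass. Their median log2 fold change was 0.26, 5 of the 16 had an unadjusted p under 0.05, and DESeq2 called 2 higher. P2ry6, a nucleotide receptor of microglia, rose from 1.77 ± 0.0398 to 3.93 ± 0.104 CPM (SD, n = 3 each; log2 fold change 1.15 ± 0.19, adjusted p = 0.019 in edgeR's quasi-likelihood test). It lay above every GFP library in all 3 Caspase3 libraries. Its edgeR adjusted p passed the threshold without Caspase3 replicate 1 but not without any other single library (up to 0.0974). The 8 microglia markers summed to 651 to 918 CPM in the Caspase3 and 360.0 to 427.5 CPM in the GFP libraries, with 6 of 8 higher, none lower, and none called without GFP replicate 2 (2 without GFP replicate 3). Among those that rose were Ctss (3.20-fold), C1qa (2.75-fold) and Aif1 (2.54-fold), with edgeR adjusted p-values of 0.00489, 0.00566 and 0.0191. The part of microglial content in the P2ry6 rise was not tested.

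A search for the nearest patterns was made over 10869 tested genes that averaged 5 CPM or more. The members and genes with Gm or Rik names were left out of it. The 3 genes whose centred log2 CPM lay nearest to Gjd2 over the 6 libraries were Apold1, Ankrd34b and Sik1. Their root mean square differences were 0.155, 0.179 and 0.184 log2 units. All 3 were lower in the Caspase3 group, which follows from choosing them by the Gjd2 pattern and is not a separate result. Apold1 was at 8.24, 8.96 and 8.76 CPM in Caspase3 replicates 1, 2 and 3 and at 17.8, 20.99 and 19.7 CPM in GFP replicates 1, 2 and 3. For Gja1 the nearest were Rnf182, Xrcc2 and Creb5, at 0.0246, 0.0294 and 0.0345 log2 units.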

How the data were processed

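Poly(A) RNA of 6 piriform cortex libraries was analysed in 2 groups of 3 taken from the sample titles. The submitters' processing notes list HISAT2, featureCounts and DESeq2, and both mm10 and GRCm38 as builds, without saying what each was used for. The deposited table held read counts per gene, per the file headers. The deposited FPKM values, named so per the file headers, served for levels between genes. In the ratios computed they equalled counts per length. Fits used edgeR 4.0.16 in R 4.3.3 (filterByExpr, TMM, quasi-likelihood test, Benjamini-Hochberg over 16721 genes, threshold 0.05). The SE is the absolute log2 fold change divided by the square root of F. CPM are counts over library size times TMM factor.

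The members and gene lists were chosen with earlier results of these data known. The lists held markers of GABAergic, excitatory and striatal neurons, astrocytes, oligodendrocytes and their precursors, meninges, vessels, choroid plexus and microglia, besides the 3 lists of related genes. Precursors, excitatory, striatal and vascular markers gave no call in the main edgeR fit, DESeq2 or limma-voom (0, 0, 6 and 0 of them had an unadjusted p under 0.05). Choroid markers gave no call in the main edgeR fit or limma-voom and 1 in DESeq2 (2 had an unadjusted p under 0.05). When low counts were not filtered, edgeR called 8 striatal markers lower, and 1 excitatory and 1 choroid marker in each direction. Without Caspase3 replicate 1, it called 1 excitatory and 1 choroid marker higher. The text names the members, Gad2, Drd2, Adora2a, family genes that were tested, up to 4 called genes of each list by adjusted p or, in lists with no call, the gene of highest mean CPM, and the 3 genes nearest to Gjd2 and Gja1. Aqp4 was named as an astrocyte reference after its values were seen. Alternatives used DESeq2 1.42.0, limma 3.58.1, other scalings and filters, log2(FPKM + 0.1) and log2(FPKM + 1), a replicate block and each library left out. Leaving out Caspase3 replicate 1 and GFP replicate 3 together was added after seeing the data. The test was tried on simulated counts. Replicates differed by more than sampling noise (mean chi-square per gene 11.4 to 29.7). Sequences were aligned with Biopython 1.88. Some genes that this rule for named genes selects are not reported here.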

Additional observations from a re-analysis of the deposited data

How the results depend on the processing

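The count of members called was 1 under 8 other scalings, tools and filters, and 2 both without the filter on low counts and with the replicate block, where Gjb2 joined Gjd2. It ranged from 0 to 1 when 1 library was left out. The count over all genes was 274, and 495 with DESeq2, 170 with limma on log2(FPKM + 1), 913 with no filter and 421 with the replicate block, with 17 to 285 when 1 library was left out. The count of extracellular ATP genes was 1, and 2 with DESeq2, 3 with no filter, 2 with the replicate block, 0 without both Caspase3 1 and GFP 3, and 0 to 1 when 1 library was left out. The other connexins and the gap junction partners gave 0 calls in all 17 alternatives. Gjd2 kept a negative log2 fold change in 17 of 17, with -0.66 on the log2(FPKM + 1) scale, which understates changes of low genes. Gjc1 and Gjb1 changed sign in 2 alternatives each, and the other members in none. The ratios within a library were equal from counts and from FPKM, as their construction requires. Whether same-numbered libraries form pairs was not settled. Their deviations from the group means correlated at 0.065, 0.178 and 0.027, against -0.142 to 0.079 for libraries of different number. Caspase3 1 correlated best with GFP 3, and Caspase3 2 and Caspase3 3 with the GFP library of their own number. Depth limits the 11 family genes under the filter: when low counts were not filtered, 10 of the 14 other family genes had an adjusted p in edgeR and none was called, and the 4 with no count could not be tested.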
